A study of Homo sapiens with 75 samples.

Results

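MYC and 38 genes that make or modify ribosomes were followed through 5 mantle cell lymphoma lines treated with antibodies against CD20. The 39 genes were MYC, subunits of RNA polymerases I and III, nucleolar assembly factors and growth genes known as MYC targets. A gene counted as measured where the array carried a probe set annotated to that gene's symbol alone. That held for 34 genes with 66 probe sets, of which 60 passed a filter on low intensity, and all 34 genes were tested among 13879 genes. NOP56, DKC1, BOP1 and PPAN had only probe sets annotated to several symbols, and GNL3 had none listed, so these 5 genes have no value here. By role, the 34 genes were MYC itself, 3 polymerase subunits, 2 proteins of the box C/D and 3 of the box H/ACA small nucleolar particles, 6 small-subunit and 9 large-subunit assembly factors, 6 other nucleolar proteins and 4 growth and metabolism genes.

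The study used the established human lines REC-1, HBL-2, JEKO-1, Z138 and GRANTA-519, all derived from mantle cell lymphoma, a B cell cancer. Each line was exposed to GA101 (obinutuzumab, a glycoengineered type II antibody against CD20) at 10 µg/ml, to rituximab (a type I antibody against CD20) at 10 µg/ml, to both at those doses, to an isotype control antibody, or to phosphate-buffered saline (PBS). With 3 arrays in each of the 25 groups, 75 arrays were available. All groups grew in RPMI1640 with L-glutamine and 20% fetal bovine serum. Each line stands for 1 tumour, the time of exposure is not given in the labels used here, and the labels do not say that the 3 arrays of a group came from separate cultures, so the p-values measure a spread between arrays that may be technical. RNA came from whole cultures, in which fewer cells of one state and less transcript per cell cannot be told apart.

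MYC is a transcription factor that pairs with MAX and binds the E-box CACGTG and related sequences near the starts of many genes. Among its best known targets are the genes for ribosome production: polymerase I copies the ribosomal RNA precursor in the nucleolus, small nucleolar particles guide its chemical modification, assembly factors fold and cut it into the small and large subunits, and polymerase III adds the 5S rRNA and the tRNAs. In B cells, signals through surface receptors change MYC within hours, and a growing lymphoma cell depends on a high rate of ribosome production.

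RefSeq promoter windows (GRCh38.p14, 250 bases before to 50 bases after each annotated start) were held for 27 of the 34 genes, in 34 entries because 7 genes have several starts. MYC, POLR3G, NOP58, NOLC1, RRP12, RRS1 and RRP1B had no entry. The palindrome CACGTG stood in 15 of the 34 entries (44.1%), from 15 genes, against 7.26% of all 35116 entries and 9.13% of the 16092 entries of tested genes. In the 250 bases before the start the share was 11.8% (4 entries) against 6.34% of all entries, while 12 entries (35.3%) against 1.05% of all had a match that touched the 50 bases after the start, a window chosen after the matches had been seen. A match describes letters in a window and says nothing of binding. The 16 matches are shown because they are the sequence feature that the rule for the members did not use, each as 30 bases on the gene's strand with the E-box in capitals.
FBL: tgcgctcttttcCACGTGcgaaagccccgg
GAR1: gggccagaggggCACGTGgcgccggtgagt
RRP9: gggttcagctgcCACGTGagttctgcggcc
UTP20: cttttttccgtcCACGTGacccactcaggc
WDR43: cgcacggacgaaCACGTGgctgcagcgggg
BYSL: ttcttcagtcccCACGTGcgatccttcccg
LTV1: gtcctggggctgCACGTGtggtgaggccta
PES1: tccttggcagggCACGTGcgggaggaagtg
NOP2: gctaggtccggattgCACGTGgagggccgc
MRTO4: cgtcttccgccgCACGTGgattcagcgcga
DDX21: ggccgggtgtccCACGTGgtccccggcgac
LYAR: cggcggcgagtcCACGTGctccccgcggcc
MYBBP1A: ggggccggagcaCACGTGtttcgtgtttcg
ODC1, upstream match: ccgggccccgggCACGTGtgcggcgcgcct
ODC1, downstream match: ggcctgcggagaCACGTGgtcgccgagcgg
NME1: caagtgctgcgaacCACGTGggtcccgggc

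The RRP9 site lies at chr3:51941892-51941921 on the minus strand and spans the annotated start, its first E-box base 5 bases upstream. In the WDR43 site (chr2:28894658-28894687, plus strand) the first E-box base is base 4 of the transcript. In the GAR1 site (chr4:109815781-109815810, plus strand) it is base 32. Carriers of an E-box differed in how they moved: RRP9 and GAR1 were never lower than isotype in a test below, and WDR43 was lower in more lines than it was higher. FBL, UTP20, PES1, MYBBP1A and NME1 were called in no line in the main fit, which held no replicate term. For contrast, 250 bases before the start are shown for RRP9, whose mean was higher in every line with either antibody, and for POLR1C, whose mean was lower in 4 of 5 lines. Neither window holds a complete CACGTG.
RRP9, chr3:51941905-51942154, minus strand: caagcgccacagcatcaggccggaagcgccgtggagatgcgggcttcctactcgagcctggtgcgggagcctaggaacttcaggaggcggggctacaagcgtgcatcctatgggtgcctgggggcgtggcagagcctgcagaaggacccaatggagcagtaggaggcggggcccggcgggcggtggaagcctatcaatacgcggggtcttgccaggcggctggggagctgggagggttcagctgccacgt
POLR1C, chr6:43516839-43517088, plus strand: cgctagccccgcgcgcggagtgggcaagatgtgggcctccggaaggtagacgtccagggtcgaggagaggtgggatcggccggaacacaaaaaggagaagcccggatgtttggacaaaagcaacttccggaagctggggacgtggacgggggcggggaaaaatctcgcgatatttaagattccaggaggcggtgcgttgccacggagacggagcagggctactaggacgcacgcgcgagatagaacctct

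Expression is given as array intensity on a linear scale, in arbitrary units that the authors had scaled to 1 mean per array, and changes as differences of mean log2 intensity with the standard error (SE) of a limma fit over all 75 arrays. A gene is called higher or lower where its Benjamini-Hochberg adjusted p, over all 13879 genes, is under 0.05. Arrays of 1 group correlated at 0.964 to 0.973 over probe sets, and array medians ran from 11.1 to 17.4. The B cell genes MS4A1 (line means 4810 to 6260) and PAX5 (1240 to 4030) and the lymphoma marker CCND1 (1120 to 5730) were bright in all 5 lines, with CD79A (289 to 705), CD79B (431 to 1600) and SOX11 (182 to 689) below them and CD22 the most uneven (27.3 to 860). Of 14 measured marker genes of T cells, myeloid cells, epithelium, fibroblasts and red cells, CD14 (0.133 to 2.93), KRT19 (0.344 to 2.14), CD3E (5.76 to 12.2) and COL1A2 (5.93 to 9.02) did not pass the filter on low intensity. The other 10 did, with line means of 2.9 to 86.4, among them LYZ (2.9 to 86.4), CD3G (5.61 to 68.7), COL1A1 (41.3 to 64.4), CD3D (5.07 to 45.9), EPCAM (5.66 to 37.8) and HBB (30.9 to 36.8), and their part in the results was not tested. All comparisons with isotype within a line share the same 3 isotype arrays.

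Without an antibody against CD20 the lines differed in MYC more than in any other member. Over the 6 isotype and PBS arrays of each line, mean MYC intensity was 4571 ± 462 in Z138 (SD, n = 6), 3028 ± 169 in JEKO-1, 2009 ± 142 in HBL-2, 1974 ± 206 in REC-1 and 815 ± 50.6 in GRANTA-519. Z138 was thus 5.59-fold over GRANTA-519, JEKO-1 was 3.71-fold over it, and the neighbours HBL-2 and REC-1 (difference 0.03 on the log2 scale, adjusted p 0.587) did not differ beyond their spread. All 34 members differed between lines in an F test over the control arrays, as did 86.8% of all genes.

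The order of the lines was not the same for the other members. POLR1C, a subunit that polymerases I and III share, was highest in JEKO-1 (975 ± 61.3, SD, n = 6) and lowest in GRANTA-519 (303 ± 35.6), a 3.23-fold range. RRP9, a protein of the U3 particle that starts small-subunit processing, ran from 159 ± 14.4 in JEKO-1 to 44.97 ± 9.25 in GRANTA-519. POLR1B, the second largest catalytic subunit of polymerase I, was also highest in JEKO-1 (1289 ± 95.7) but lowest in REC-1 (393 ± 25.4), and NOP2, a methyltransferase of the large subunit, was lowest in REC-1 at 197 ± 29.8. LTV1, a late small-subunit export factor, went the other way, with 1009.5 ± 74.1 in REC-1 and 339 ± 28.2 in HBL-2. JEKO-1 was higher than GRANTA-519 in 25 members (34.6% of all genes) and lower in 7 (31.1%), higher than HBL-2 in 22 (28.8%) and lower in 4 (32%), and higher than REC-1 in 21 (32.7%) and lower in 6 (30.3%). The abundant nucleolar chaperones spanned least, NPM1 1.13-fold and NCL 1.25-fold.

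**Figure D1:**
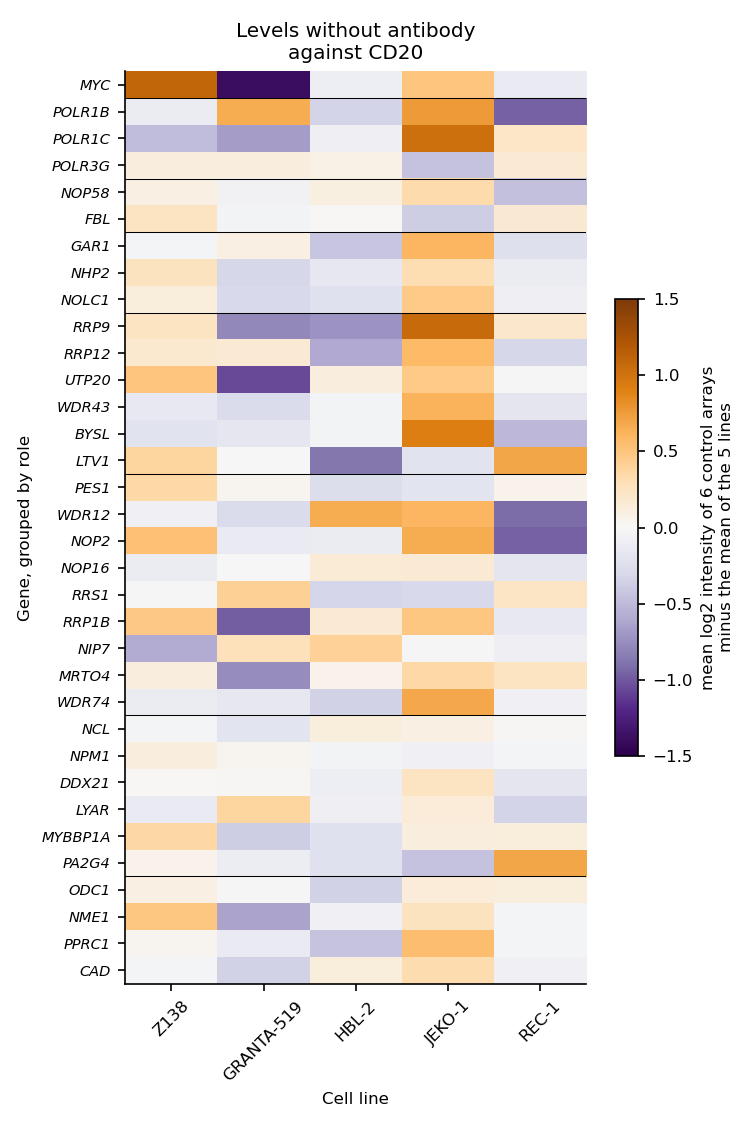
Mean log2 intensity of each of the 34 genes (rows, grouped by role) over the 6 control arrays of each line (columns), minus the mean of the 5 lines; orange is above and purple below that mean. MYC is highest in Z138 and lowest in GRANTA-519, while POLR1C, RRP9 and BYSL are highest in JEKO-1.

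The question of the main comparisons was how each antibody changed expression against the isotype antibody. For MYC the answer depended on the line: it rose in REC-1 with every antibody arm, fell in HBL-2 with rituximab and with the combination, and passed the test in neither direction in Z138. In REC-1 the isotype arrays read 2099, 2155 and 2134, the GA101 arrays 3258, 3408 and 3563, the rituximab arrays 2922.5, 2997 and 2861, and the combination arrays 2886, 2883 and 2906. No treated array of REC-1 came near an isotype array. The rise was 0.68 ± 0.0608 (SE) with GA101 (adjusted p 9.66e-13), 0.46 with rituximab (1.84e-07) and 0.44 with both (5.91e-07).

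In HBL-2 the isotype arrays read 2127, 2055 and 2203, and the GA101 arrays 2062, 1791 and 1998. The rituximab arrays read 1391, 1498 and 1437, and the combination arrays 1258, 1242 and 1342. Rituximab and combination arrays lay below every isotype and GA101 array, whereas GA101 and isotype arrays overlapped. MYC fell by 0.56 with rituximab (adjusted p 1.44e-10) and by 0.73 with the combination (1.99e-14), while the change with GA101 was -0.13 (0.271).

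JEKO-1 read 3179, 3205 and 3131 on the isotype arrays, 2781, 2919.5 and 3122 with GA101, 3859.6, 3631 and 3514 with rituximab and 3488, 3219.8 and 3463 with both. The 3 rituximab arrays were the highest of the line, and MYC rose by 0.21 ± 0.0608 there (adjusted p 0.0209), but the call was lost without rituximab replicate 1 (0.17, 0.152), isotype replicate 1 (0.0526) or isotype replicate 3 (0.0783). GA101 gave -0.11 (0.353) and the combination 0.10 (0.487). GRANTA-519, with the lowest level, read 854, 851 and 872 with isotype and 709, 689.7 and 729.9 with rituximab, a fall of 0.28 (0.00261) that was -0.12 (0.444) against PBS, whose arrays read 793, 759 and 759. GA101 (785, 758 and 789) and both antibodies (731, 742 and 801) gave -0.14 (0.213) and -0.18 (0.106) in that line.

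Z138 showed no call: its isotype arrays were 3752, 4809 and 5001, its PBS arrays 4671, 4328 and 4864, and its GA101, rituximab and combination arrays lay between 4089 and 4469.9. The 3 treated arms sat inside the spread of the isotype arrays, with changes of -0.04, -0.10 and -0.06. The sign with GA101 turned to 0.04 without isotype replicate 3 and to 0.01 without isotype replicate 2, and with the combination it turned to 0.02 without isotype replicate 3. Over all 5 lines the changes of MYC were 0.05 ± 0.0272 with GA101 (adjusted p 0.219), -0.05 with rituximab (0.163) and -0.09 with the combination (0.0155), averages of lines that moved apart, and against PBS the changes with rituximab and the combination turned to 0.077 (0.0542) and 0.04 (0.402).

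**Figure D2:**
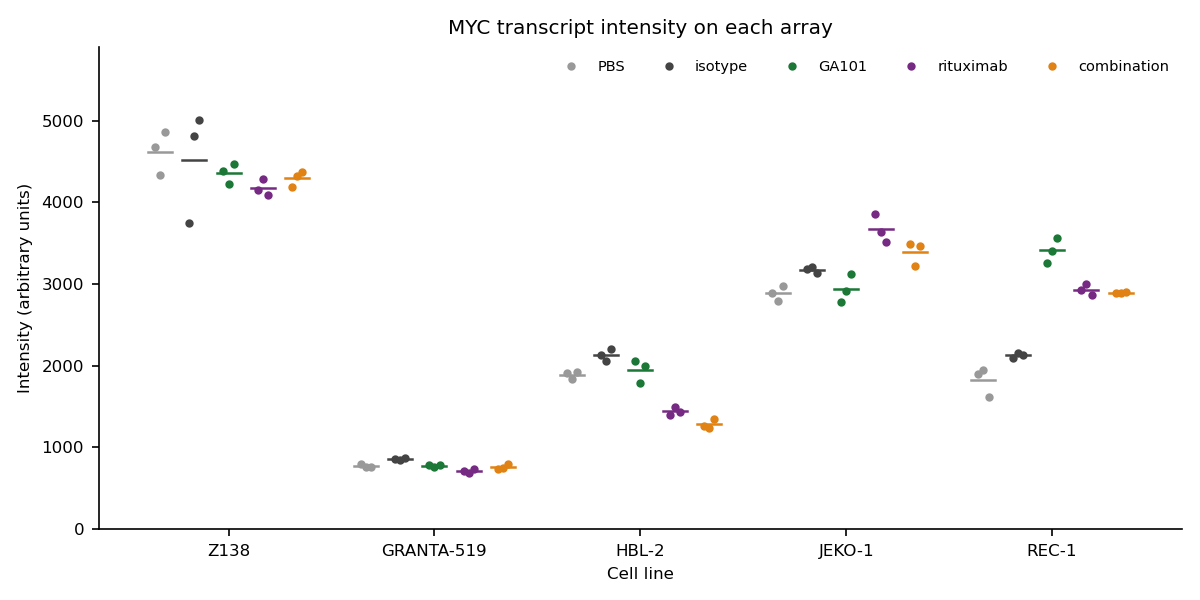
MYC intensity (arbitrary units, axis from 0) on each of the 75 arrays, by line and treatment, with a bar at each group mean. In REC-1 all 9 treated arrays lie above the isotype and PBS arrays, and in HBL-2 the rituximab and combination arrays lie below them.

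REC-1 was the line in which most members moved. With GA101, 19 of the 34 members were higher and none lower, where 4.52% of all genes were higher and 7.14% lower, and the median change was 0.34 for the members against -0.0471 for all genes. With rituximab 11 were higher and none lower (3.11% and 2.06% of all genes, medians 0.213 and -0.0212), and with the combination 10 and none (2.95% and 2.03%, medians 0.231 and -0.00793). Without isotype replicate 3, which was low for several members, the rituximab count was 7. Isotype and PBS arrays of REC-1 differed in no member at the threshold and in 4 at an unadjusted p under 0.05 in limma (9.05% of all genes), and against PBS the counts were 18, 9 and 10 higher and none lower (4.41%, 3.17% and 2.55% of all genes).

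**Figure D3:**
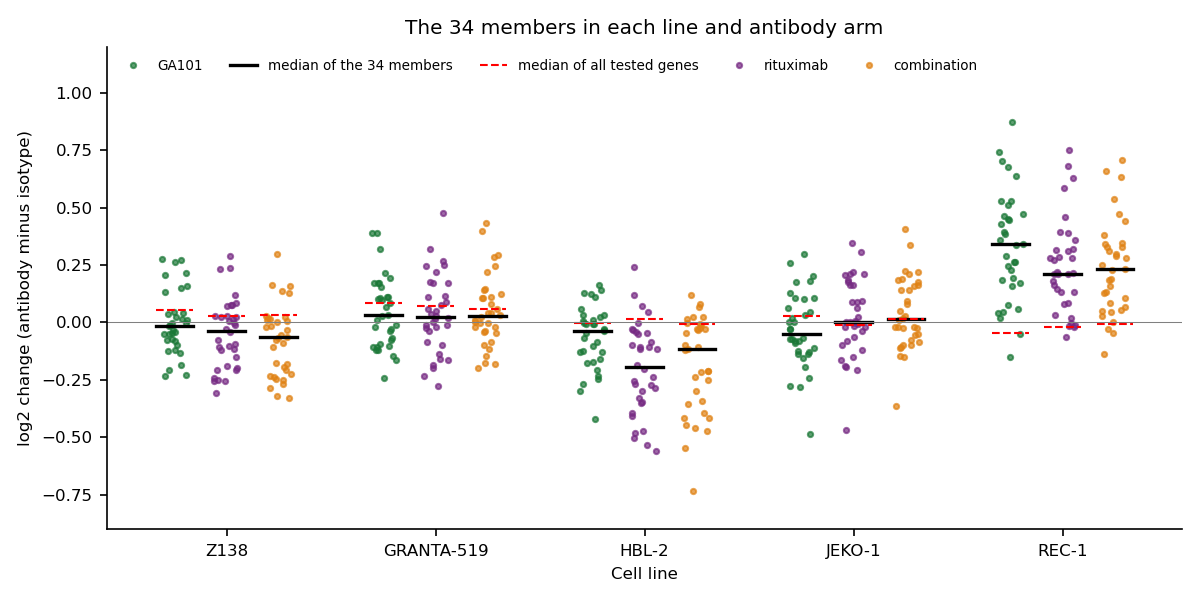
Log2 change against isotype of the 34 genes (points) in each line with GA101, rituximab and the combination, with the median of the 34 genes (black bar) and of all tested genes (red dashed line). The black bar stands above the red line in the 3 REC-1 arms and below it in the rituximab and combination arms of HBL-2.

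All 3 polymerase subunits rose in REC-1 with GA101. POLR3G, a polymerase III subunit found mainly in proliferating and stem cells, read 175, 169 and 122 with isotype, 283, 249 and 221 with GA101, 220.5, 221 and 249.8 with rituximab and 225, 220.4 and 222 with both. The lowest treated array was above the highest isotype array, the rises were 0.70 ± 0.115 (adjusted p 8.1e-06), 0.59 (0.000374) and 0.54 (0.00144), and the last was lost without isotype replicate 3 (0.37, 0.0659). A dimmer POLR3G probe set did not follow, and with the mean over probe sets the changes were 0.27 (0.482), 0.30 (0.543) and 0.27 (0.647). POLR1C read 596, 566 and 520.2 with isotype, 737, 747 and 852 with GA101, 660.4, 651 and 634 with rituximab and 661, 657 and 651 with both. It passed the test with GA101 (0.47, 2.88e-06) and not with rituximab (0.21, 0.0814). POLR1B, at 426, 403 and 412 with isotype, read 508, 480.03 and 532 with GA101 (0.29, 5.72e-05).

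Of the small nucleolar particle proteins, GAR1, NOLC1 and NOP58 rose in REC-1 with GA101. GAR1, a core protein of the H/ACA particles that guide pseudouridylation, read 976, 1017 and 914 with isotype and 1308, 1119 and 1309 with GA101 (0.36, adjusted p 2.83e-05), and rose with rituximab as well (0.28, 0.00227). NOLC1, a chaperone of these particles, rose by 0.34 (6e-04) with GA101, and NOP58 of the C/D particles, which guide methylation, by 0.19 (0.0474). FBL, the methyltransferase of the C/D particles, read 3253, 3076 and 2920.2 with isotype and 3199.8, 3181 and 3133 with GA101, a change of 0.04 (0.814), and NHP2 gave 0.05 (0.796).

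In the small-subunit group 3 of 6 members passed the test with GA101 in REC-1, RRP9, BYSL and WDR43, with a group median of 0.355. RRP9 read 87.9, 81.5 and 77.3 with isotype, 128.5, 110.2 and 147 with GA101, 127.85, 113 and 142 with rituximab and 143, 134 and 126 with both. Every treated array was above every isotype array, and the rises were 0.64 ± 0.143 (adjusted p 0.00111), 0.63 (0.00269) and 0.71 (0.000687). BYSL, needed for the last steps of the small subunit, gave 0.45 (0.0414) with overlapping arrays, and WDR43, a part of the early processome, gave 0.26 (0.0135). UTP20, a large scaffold of the same processome, had a wide spread, with isotype arrays at 186, 333 and 400.3 and GA101 arrays at 433, 515 and 519, so that a change of 0.74 had an adjusted p of 0.115.

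The large-subunit group moved most widely, with 6 of 9 members higher in REC-1 with GA101 and a group median of 0.449. WDR12, which forms a complex with PES1 and BOP1, read 489, 513 and 446 with isotype, 619.9, 638 and 627 with GA101, 557, 599 and 599 with rituximab and 585, 634 and 595 with both. Its spread was small, and the rises were 0.38 ± 0.049 (adjusted p 4.01e-08), 0.28 (6.46e-05) and 0.33 (4.11e-06). WDR74, a factor of rRNA processing, read 479.9, 429 and 345 with isotype and 585, 579 and 606 with GA101 (0.51, 4.03e-05). It rose with rituximab (0.39, 0.00363) and with both (0.47, 0.000335), although against PBS the latter was 0.30 (0.052). NOP2 read 232, 195 and 183 with isotype and 280.5, 290.2 and 305 with GA101 (0.53, 3.67e-05). RRS1, which brings in the 5S particle, read 879.99, 957 and 867 with isotype, 1194, 1218 and 1279 with GA101 and 1181, 1182 and 1182 with rituximab, rises of 0.45 (0.000137) and 0.39 (0.00196). NOP16 (0.40, 8.34e-05) and MRTO4 (0.46, 0.00715) completed the 6, while PES1 gave 0.34 (0.115), NIP7 0.53 (0.0761) and RRP1B 0.23 (0.159).

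Among the other nucleolar proteins only the helicase DDX21 and LYAR passed in REC-1 with GA101. DDX21 read 3906, 3909 and 4303 with isotype and 5170.4, 4658 and 4739 with GA101 (0.27, adjusted p 2.99e-05). LYAR, a nucleolar factor of proliferating cells, had the largest change of all members (0.87 ± 0.305, 0.0498) and the widest spread, at 488, 759 and 988 with isotype and 1105, 1539 and 1325 with GA101. Its call was lost on leaving out any 1 of 45 of the 75 arrays, and without isotype replicate 1 the change was 0.60. The call was also lost with quantile normalization (0.0552), without the filter (0.0698) and against PBS (0.0687). It was kept with the mean over probe sets (0.73, 0.00117) and with a replicate block (1.01e-06). NCL (-0.15, 0.306), NPM1 (0.06, 0.621), MYBBP1A (-0.05, 0.953) and PA2G4 (0.19, 0.27) did not pass. Of the growth genes PPRC1, a coactivator of mitochondrial gene expression, rose by 0.43 (2.17e-06), and ODC1, the first enzyme of polyamine synthesis and a classical MYC target, stood at 0.02 (0.925). CAD, the enzyme that starts pyrimidine synthesis, passed with rituximab (0.32, 0.0187, arrays overlapping) and with both. Its isotype arrays in REC-1 were themselves lower than the PBS arrays by -0.23, which did not pass (adjusted p 0.342). NME1, a nucleoside diphosphate kinase, passed neither with rituximab nor with both.

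In HBL-2 the members that moved were lower. Rituximab left 14 of 34 lower and none higher (3.51% and 6.28% of all genes), with a median change of -0.194 for the members and 0.0138 for all genes. The combination left 12 lower and none higher (3.82% and 4.62%, medians -0.117 and -0.0084), and GA101 left 4 lower and none higher (2.77% and 2.94%), a count of 2 without GA101 replicate 3. Against PBS the counts were 13 lower with rituximab (3.6%) and 10 with the combination (4.23%), none higher. Below every isotype array lay all 3 rituximab arrays for 14 members, 12 of them called, against 10.5% of all genes.

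All 3 polymerase subunits were again among them. POLR1C read 416, 401 and 422 with isotype, 316, 282 and 328 with GA101, 327, 303 and 261 with rituximab and 304, 289 and 309 with both. The fall was 0.42 with GA101 (adjusted p 4.01e-05), 0.48 with rituximab (1.14e-06) and 0.46 with both (3.99e-06), and the PBS arrays, at 533, 488 and 477, were higher still. POLR1B read 549, 614 and 595 with isotype, 532, 492 and 469.6 with GA101, 447, 457 and 430.2 with rituximab and 443, 397 and 425 with both, falls of 0.23 (0.00233), 0.40 (6.52e-08) and 0.47 (5.29e-10). POLR3G was dimmer, 129.8, 144 and 123 with isotype and 101.1, 108 and 102 with rituximab (-0.35, 0.037).

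WDR43 read 615, 637 and 658 with isotype, 588, 509.8 and 464 with GA101, 441, 477 and 403 with rituximab and 444, 405 and 461 with both. It fell by 0.53 with rituximab (adjusted p 2.39e-07) and by 0.55 with both (1.63e-07), and the fall with GA101 (-0.30, 0.00771) was lost without GA101 replicate 3 (-0.22, 0.132). RRS1 read 624, 638 and 549.7 with isotype and 432, 390.01 and 455 with rituximab (-0.50, 1.51e-05), and its GA101 arrays, at 501, 629.9 and 561, stayed within the isotype range or just below it. NOP16, a nucleolar factor of the large subunit, read 1166, 1203 and 1237 with isotype and 916, 917 and 885 with rituximab (-0.41, 4.35e-05). LTV1 fell by 0.47 (0.000201), NOLC1 by 0.33 (0.000896), PPRC1 by 0.27 (0.00283), NOP58 by 0.26 (0.00535) and DDX21 by 0.24 (0.00013). NOP2 (-0.30, 0.0288) and WDR74 (-0.29, 0.0313) passed with arrays that overlapped. FBL (-0.05), GAR1 (-0.00178), NHP2 (-0.05) and WDR12 (-0.04) did not pass in HBL-2 with rituximab.

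The same names therefore appeared on both sides. Of the 19 members higher in REC-1 with GA101 and the 14 lower in HBL-2 with rituximab, 13 were shared, 68.4% of the first list and 92.9% of the second, and LTV1 alone of the 14 was absent from the first. With the same antibody the shared number was 7 for rituximab (63.6% of 11 and 50% of 14), 5 for the combination (50% of 10 and 41.7% of 12) and 4 for GA101 (21.1% of 19 and all 4 of HBL-2). The test of the difference itself, an F test of whether the change against isotype differed among the 5 lines, passed in 15 of 34 members for GA101 (14.1% of all genes) and in 15 for rituximab (11.5%). The smallest adjusted p-values were those of MYC (1.16e-11), POLR1C (3.24e-10), POLR1B (3.12e-08), PPRC1 (1.4e-06) and DDX21 (1.26e-05) for GA101. For rituximab they were those of MYC (1.06e-13), POLR1B (4.71e-08), POLR1C (1.59e-06), RRS1 (5.08e-06) and WDR43 (7.65e-06).

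The change in REC-1 minus the change in HBL-2, a pair of lines chosen after their values were seen and so given as a description, was positive past the threshold in 16 members with GA101 (2.72% of all genes), 16 with rituximab (2.55%) and 18 with both (2.59%), and negative in none. For MYC the difference was 0.81 with GA101, 1.02 with rituximab and 1.17 with both. With rituximab POLR3G differed by 0.94, RRS1 by 0.90, WDR43 by 0.75 and NOP16 by 0.72. FBL (0.02), NPM1 (0.08), NCL (0.10), ODC1 (0.02) and NME1 (0.10) did not pass.

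**Figure D4:**
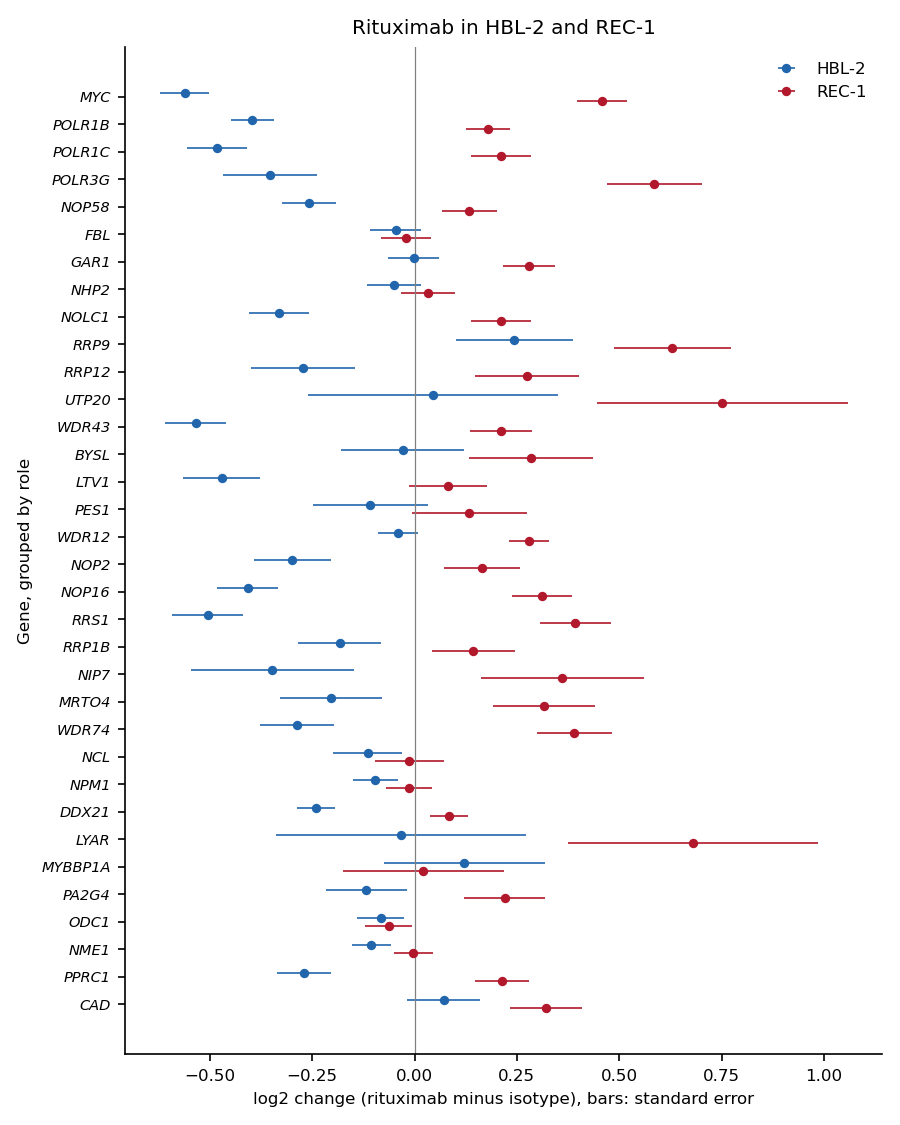
Log2 change with rituximab against isotype for each of the 34 genes (rows) in HBL-2 (blue) and REC-1 (red), with bars of 1 standard error. MYC, the polymerase subunits, WDR43, NOP16 and RRS1 lie on opposite sides of 0, while FBL, NPM1 and ODC1 lie together near it.

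In the other 3 lines few members moved, and POLR1C, POLR1B and NOP58 were the usual ones. In JEKO-1 GA101 left 4 members lower and none higher (1.75% and 5.42% of all genes), a count of 2 without GA101 replicate 3 or isotype replicate 2, rituximab left 2 lower and 2 higher (2.98% and 4.5%), and the combination 1 and 1 (1.61% and 4.46%). POLR1C of JEKO-1 read 1066, 988 and 1015 with isotype, 725, 735 and 730.2 with GA101, 714, 742 and 761 with rituximab and 798, 768 and 817 with both. All 9 treated arrays lay below the isotype arrays and also below the PBS arrays (893, 952 and 936), with falls of 0.49 (adjusted p 1.84e-06), 0.47 (4.05e-06) and 0.36 (0.000411), the last -0.22 (0.0737) against PBS. POLR1B read 1396, 1359 and 1344 with isotype and 1069.8, 1122 and 1181 with GA101 (-0.28, 0.000132), but its PBS arrays, at 1235, 1138 and 1263, overlapped the treated ones and the change against PBS was -0.11 (0.291). WDR12 went up in the same line, from 1329, 1395 and 1271 to 1609, 1558 and 1460.4 with rituximab (0.21, 0.00231), or 0.13 (0.135) against PBS.

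In Z138 GA101 left 1 member higher and 2 lower (8.57% and 1.86% of all genes), rituximab 1 and 3 (8.36% and 4.21%) and the combination 1 and 6 (6.44% and 4.01%). NOP58 of Z138 read 2459, 2327 and 2154 with isotype, 1958, 2031 and 2010.1 with GA101, 1953, 1885 and 1964 with rituximab and 1879.7, 1792 and 1848 with both. All treated arrays were below the isotype arrays, and the fall with both antibodies (0.33, adjusted p 0.000319) held in every alternative tried, while that with rituximab (-0.26, 0.0047) was lost without isotype replicate 1 (-0.21, 0.0535). CAD read 263, 256 and 273 with isotype and 339.8, 333 and 285 with GA101 (0.27, 0.0369), but its PBS arrays, at 334, 353 and 275, matched the treated ones. The GA101 count of Z138 was 0 without GA101 replicate 2 or isotype replicate 2 and 1 without GA101 replicate 1. The rituximab count of 4 was 2 without rituximab replicate 1 or 3, and the combination count of 7 was 3 without combination replicate 1 or isotype replicate 2 and 4 without combination replicate 2.

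GRANTA-519 had the fewest calls. GA101 left 1 member higher (WDR74, 0.32, adjusted p 0.0354) and 1 lower (NOP58, -0.24, 0.0293), against 2.47% and 0.576% of all genes, and each call was lost on leaving out any of 5 of the 6 arrays compared, replicates 2 and 3 of GA101 and all 3 of isotype. Rituximab left 2 higher and 3 lower (3.29% and 0.908%), with MYC the only one of them that kept its call without each array in turn. The count of 5 was 2 without rituximab replicate 1 or 2 or isotype replicate 2 or 3, and 3 without rituximab replicate 3. RRP9 was the dimmest case, 47.5, 43.0 and 28.0 with isotype and 49.1, 56.2 and 55.6 with rituximab (0.48, 0.0419), and without the low isotype replicate 3 the change was 0.24 (0.497). The combination left none of the 34 past the threshold (2.27% of all genes were called in either direction), with 9 members at an unadjusted p under 0.05 in the limma fit against 12.8% of all genes. Without isotype replicate 1 of GRANTA-519 or of Z138 the count was 1.

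**Figure D5:**
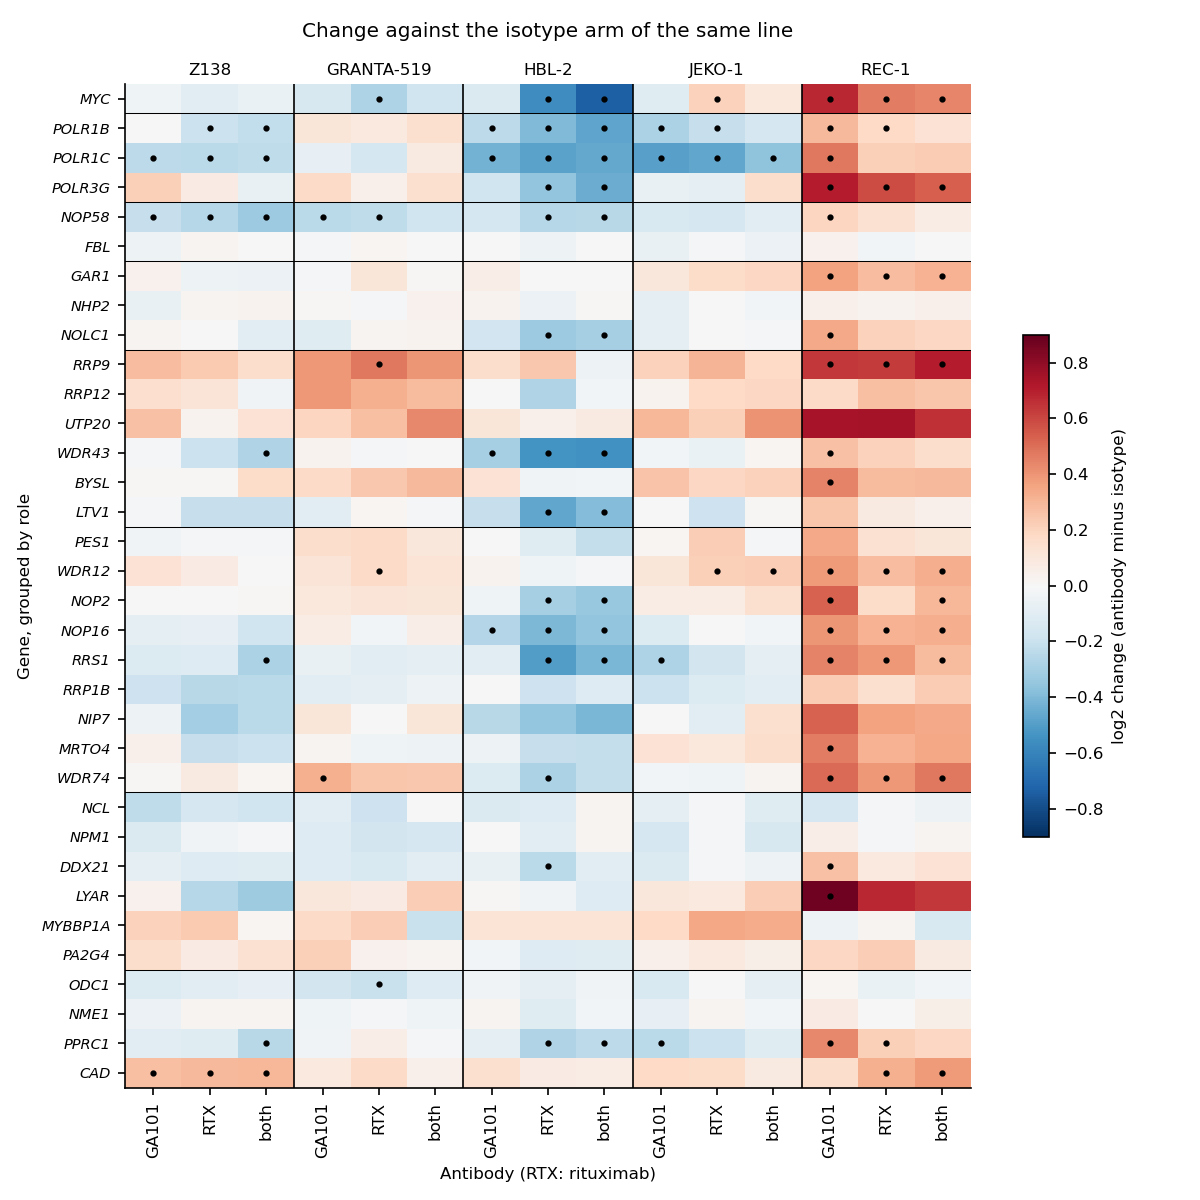
Log2 change against isotype of each of the 34 genes (rows, grouped by role) with GA101, rituximab (RTX) and both antibodies in each line (columns); red is higher, blue lower, and a dot marks an adjusted p under 0.05. Calls are mostly red in REC-1 and blue in HBL-2, and POLR1C is marked lower in 9 of the 15 columns.

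Over these 15 comparisons of a line and an antibody with isotype, 12 members were called in none in the main fit, which held no replicate term: FBL, NHP2, RRP12, UTP20, PES1, RRP1B, NIP7, NCL, NPM1, MYBBP1A, PA2G4 and NME1. With a replicate block in the limma fit, NIP7 passed as higher in every REC-1 arm. It then passed as lower in HBL-2 with rituximab (-0.35, adjusted p 0.00765) and with both (-0.41, 0.00133). UTP20 then passed in every REC-1 arm and PES1 in REC-1 with GA101 (0.0117). In the main fit another 13 members were higher in some comparisons and lower in others, among them MYC (4 higher, 3 lower), RRS1 (3 and 4) and NOP16 (3 and 3). GAR1, RRP9, BYSL, WDR12, MRTO4, LYAR and CAD were called only as higher, WDR12 most often (6 comparisons), and LTV1 and ODC1 only as lower. POLR1C was lower in 9 and higher in 1, POLR1B lower in 7 and higher in 2, and NOP58 lower in 7 and higher in 1, each time higher only in REC-1. Some of these falls were lost under alternatives. POLR1C in Z138 with GA101 (-0.23, adjusted p 0.0273) and rituximab (-0.24, 0.0185) was -0.16 (0.282) and -0.17 (0.24) against PBS. With the mean over probe sets these were -0.15 (0.204) and -0.12 (0.352). POLR1B in JEKO-1 with rituximab (-0.21, 0.00683) was -0.03 (0.886) against PBS.

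Averaged over the 5 lines, GA101 left 8 members higher and 5 lower (12.5% and 5.77% of all genes), rituximab 4 and 7 (13.8% and 6.9%) and the combination 5 and 7 (11.4% and 6.01%). Members' medians were 0.0256, -0.0111 and -0.00896, beside 0.0242, 0.0173 and 0.0198 for all genes. RRP9 rose by 0.33 ± 0.0641 with GA101 (adjusted p 6.37e-05) and by 0.38 with rituximab (5.11e-06), its mean higher in 5 of 5 lines each time. WDR12 rose by 0.15 ± 0.0219 (1.92e-07), 0.14 (1e-06) and 0.13 (3.26e-06) with GA101, rituximab and both. GAR1 rose by 0.11 (0.00261) with GA101 and 0.10 (0.00476) with rituximab. POLR1C fell by 0.23 ± 0.0327 with rituximab (1.27e-07), and NOP58 fell by 0.11 (0.00435), 0.15 (5.93e-05) and 0.16 (4.72e-05) in the 3 arms, the mean of each lower in 4 of 5 lines.

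Other calls over all lines were less firm. The rise of CAD, 0.17 with GA101 (adjusted p 0.00124) and 0.20 with rituximab (6.77e-05), was 0.03 (0.787) and 0.06 (0.376) against PBS. POLR3G (0.17 with GA101, 0.0129) turned to -0.09 (0.59) with the mean over its probe sets, and BYSL (0.20, 0.0253), WDR74 (0.14, 0.0107), NCL (-0.14, 0.00454), ODC1 (-0.09, 0.0098) and NPM1 (-0.07, 0.0412) lost their calls under quantile normalization. BYSL also lost its call without GRANTA-519 GA101 replicate 2 (0.0525), HBL-2 isotype replicate 1 (0.0546) or REC-1 isotype replicate 2 (0.0661). POLR1C with GA101 (-0.15, 0.000438) was -0.06 (0.231) with the mean over its probe sets, and NOP2 rose by 0.13 (0.0205) with its mean higher in only 3 of 5 lines. With rituximab LTV1 (-0.15, 0.00461), WDR43 (-0.12, 0.00612) and POLR1B (-0.11, 0.000439) fell, their means lower in 3, 4 and 3 of 5 lines. The call of LTV1 was lost with the mean over its probe sets (-0.09, 0.493) and against PBS (-0.07, 0.305).

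The direct comparison of the antibodies asked whether GA101 and rituximab differ. Over all lines 2 members were higher with GA101 and none lower (1.23% and 1% of all genes): MYC by 0.11 (adjusted p 0.0195) and POLR1B by 0.08 (0.0429), the latter not called without any 1 of 20 arrays (up to 0.109). The POLR1B difference was 0.08 (0.0674) under quantile normalization and 0.03 (0.931) with the mean over its probe sets. Without HBL-2 GA101 replicate 3 the count was 4. In HBL-2, 3 were higher (0.375% of all genes), MYC by 0.43 (1.16e-06), RRS1 by 0.40 (0.00321) and DDX21 by 0.17 (0.0357). Leaving out replicate 2 of either arm there left MYC alone, with RRS1 at 0.32 (0.0799) without the GA101 array and 0.34 (0.056) without the rituximab array. In JEKO-1 MYC was lower with GA101 by -0.32 (0.00278), as the only member (0.187%). In REC-1, 4 were higher (1.03%), NOP2 by 0.36 (0.0161), POLR1C by 0.26 (0.0312), MYC by 0.22 (0.028) and DDX21 by 0.18 (0.0162), which fell to 1 without GA101 replicate 2 or rituximab replicate 3 and to 0 without rituximab replicate 1. MYC there was at adjusted p 0.092 without GA101 replicate 2, 0.0989 without GA101 replicate 3, 0.0863 without rituximab replicate 1 and 0.108 without rituximab replicate 3. Z138 had POLR1B alone (0.19, 0.038, where 1.43% of all genes were higher), not called without any 1 of 5 of its 6 arrays. Under quantile normalization POLR1B there was 0.13 (0.295), and with the mean over its probe sets 0.05 (0.987). GRANTA-519 had none (0.108% of all genes in either direction, and 1 member at an unadjusted p under 0.05 in the limma fit, against 5.16% of all genes). The difference between antibodies itself differed among lines in MYC (9.93e-08), DDX21 (0.0112) and RRS1 (0.0445), 3 of 34 members against 3.61% of all genes.

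With rituximab added to GA101, MYC was lower than with GA101 alone by -0.14 averaged over all lines (adjusted p 0.00106). The difference was -0.60 in HBL-2 (2.56e-10) and -0.24 in REC-1 (0.0194). In JEKO-1 it went the other way, 0.21 with arrays that did not overlap, but did not pass (0.197). In GRANTA-519 it was -0.04 and did not pass either. Over all lines POLR1B was the other member called (-0.09, 0.0273), where 0.829% of all genes were lower, and that call was lost without any 1 of 6 arrays (Z138 GA101 replicate 1, HBL-2 GA101 replicate 1, HBL-2 combination replicate 2, JEKO-1 GA101 replicate 3, REC-1 GA101 replicate 3 and REC-1 combination replicate 3). It was also lost under quantile normalization (-0.08, 0.0714) and with the mean over probe sets (-0.02, 0.965). Adding GA101 to rituximab changed no member past the threshold in limma, over all lines or in any line, and no gene at all over the lines (0% called). Of all genes 0.137% passed in Z138, 0.0721% in JEKO-1, 0.0288% each in HBL-2 and GRANTA-519 and 0.0144% in REC-1. At an unadjusted p under 0.05 in limma there were 2 members over all lines (5.34% of all genes), 4 in HBL-2 (5.15%), 3 in JEKO-1 (5.42%), 1 in Z138 (4.95%), 3 in GRANTA-519 (4.73%) and none in REC-1 (4.2%).

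The isotype antibody itself was compared with PBS. Over all lines MYC was higher with isotype by 0.13 (adjusted p 0.000591), its mean higher in 4 of 5 lines, and CAD lower by -0.14 (0.017), against 2.16% and 4.29% of all genes; CAD was not called without REC-1 isotype replicate 2 (-0.12, 0.0553). In HBL-2 POLR1C was lower (-0.27, 0.0393; 0.937% of all genes), a call lost without any of the 3 isotype arrays or the 3 PBS arrays. In the other lines no member passed in limma, where 0.454% of all genes passed in REC-1, 2.04% in JEKO-1, 2.14% in Z138 and 0.821% in GRANTA-519. At an unadjusted p under 0.05 there were 4 members in REC-1 (9.05% of all genes), 4 in JEKO-1 (10.7%), 1 in Z138 (11.6%) and 5 in GRANTA-519 (8.95%). Set against PBS the changes of MYC were shifted accordingly: in REC-1 the rise with GA101 was 0.91 (1.46e-17), and in HBL-2 MYC fell by 0.39 with rituximab (2.8e-06). In JEKO-1 rituximab gave 0.35 against PBS (9.02e-05). The shift from PBS to isotype differed among lines in POLR1B alone (F test, 0.035; 0.656% of all genes), a call lost without any 1 of 8 arrays: replicate 1 of isotype in REC-1, JEKO-1, HBL-2 and GRANTA-519, replicate 1 of PBS in GRANTA-519 and HBL-2, PBS replicate 2 of JEKO-1 and PBS replicate 3 of REC-1.

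Other assembly factors, from lists that exclude the 39, were higher in REC-1 and lower in HBL-2 where they were called with GA101 or rituximab. In REC-1 with GA101, 22 of 42 further small-subunit factors were higher and none lower (median 0.288), led by DDX10 (0.55), NOL10 (0.46) and UTP14A (0.43), and 22 of 43 large-subunit factors likewise (median 0.251), led by URB1 (0.53), NLE1 (0.47) and RPF2 (0.45). With rituximab the counts in REC-1 were 10 and 8. In HBL-2 with rituximab 8 small-subunit factors (WDR3 -0.58, PWP2 -0.58, UTP25 -0.34) and 9 large-subunit factors (NIFK -0.40, GTPBP4 -0.39, URB2 -0.34) were lower and none higher, with medians of -0.0753 and -0.0818. The shares of all genes higher or lower in these comparisons are those given earlier beside the members. Polymerase parts were mixed in REC-1 with GA101: POLR1E (0.49) and POLR3E (0.29) rose, while the transcription factor UBTF (-0.31), POLR1D (-0.26) and POLR3GL (-0.36), the paralog of POLR3G, fell. Under quantile normalization 1 of 13 further polymerase I genes was higher there and 2 were lower. Of 19 further polymerase III genes, 1 was higher and 1 lower under that setting.

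The MAX network holds MYC's partners. In REC-1 with GA101, 2 of its 9 measured genes were higher, MXI1 (0.42) and MAX (0.19), where 4.52% of all genes were higher. In HBL-2 with rituximab 2 of 9 were higher, MXD3 (0.77), a repressor that competes for MAX, and MAX itself (0.28), against 6.28% of all genes. The 53 cytosolic ribosomal protein genes with a probe set of their own, of 79 listed, had no call in REC-1 with GA101 (median 0.0745) or in HBL-2 with rituximab. Over all lines 6 of them were lower with GA101, 3 with rituximab and 3 with the combination, and none under quantile normalization. As a share of the 53, the count was above that of all genes, given earlier, with GA101. With rituximab and the combination it was below that of all genes.

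A probe set annotated to RNA45SN5 (the brighter of 2), a gene of the ribosomal RNA precursor, was followed as well. The gene has near-identical copies, so which copy was read is uncertain. RNA was amplified by a 3' IVT kit, and whether this probe set follows the amount of precursor was not tested. Its intensity in HBL-2 was 224 to 258 with isotype, 414 to 519.8 with GA101, 973 to 1013 with rituximab and 242 to 252 with PBS, and in REC-1 it was 1122 to 1300 with isotype, 2376 to 2981 with GA101, 2501 to 2941 with rituximab and 649.5 to 858 with PBS. It was therefore higher with either antibody in HBL-2, where POLR1B and POLR1C fell, and in REC-1, where these rose with GA101. With rituximab the rise was 2.08 ± 0.117 in HBL-2 and 1.10 in REC-1. The other lines were also above isotype with either antibody. The middle isotype, GA101 and rituximab arrays read 1363, 2693 and 2656 in JEKO-1, 531.6, 2059 and 2487 in GRANTA-519, and 1480, 2427 and 3126 in Z138. The control arms also differed, by 1.02 (adjusted p 3.01e-08) in Z138, -1.24 (3.84e-11) in GRANTA-519 and 0.77 (3.18e-05) in REC-1 for isotype against PBS.

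Across the 25 group means, each taken relative to its line's mean, the other 33 members correlated with MYC at a median r of 0.647, and 21 of them at over 0.5, while all genes had a median of -0.0438 and 4.05% over 0.5. The points share arrays, lines and control arms, so this is a description. NOP2 (0.866), RRS1 (0.794), NIP7 (0.793), POLR3G (0.788) and NOP16 (0.784) were most like MYC, and NCL (-0.192), NPM1 (0.0275) and CAD (0.0464) least.

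Members with more than 1 probe set allowed a check within the arrays. In REC-1 with GA101, 22 of 26 further probe sets changed in the same direction as the one used, in HBL-2 with rituximab 23 of 26, and in REC-1 with rituximab 19 of 26. For the members called, the counts were 12 of 14, 11 of 11 and 8 of 9. Among the single antibodies in each line, fewest agreed in GRANTA-519 with GA101 (11 of 26) and in Z138 with rituximab (17 of 26). For the members called there, the counts were 0 of 1 and 2 of 5. For POLR1B, 1 of 3 further probe sets was lower in REC-1 with GA101 (-0.23), and for POLR3G the second probe set was lower too (-0.16).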

How the data were processed

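Affymetrix HG-U133 Plus 2.0 arrays were hybridised with RNA amplified by a 3' IVT kit from 100 ng, per the labels' protocols. The intensity values deposited by the authors are linear MAS5 signals, per the submitters' processing notes and the values, with array means of 171.98 to 172.01; version and settings are not given in the sources at hand. Array number, 3 a group, limits the precision. Members and gene lists were chosen with earlier results of these data known. Intensities under 1 were set to 1 (none of the 2550 member values) and log2 was taken with no further normalization. The 62 control probe sets and those annotated to several symbols were left out (41091 remained), and 26555 passed a filter (mean log2 over the 15 arrays of at least 1 line above 3.55, the median of all probe sets). The brightest probe set stood for a gene. A model of 25 group means was fitted with limma 3.58.1 in R 4.3.3 (trended eBayes, two-sided, residual df 50, prior df 5.84), with F tests of 4 numerator df between lines, and checked on simulated data. Text names MYC always, up to 6 largest rises and falls past 0.05 over all lines and up to 3 in a line whose arrays do not overlap, plus the 5 smallest p of each F test; others, given to account for every member, were added after their values were seen. Same-numbered arrays deviated together in 1 of 150 pairs (limit 0.1, range -0.0813 to 0.12), so same-numbered arrays were not treated as pairs. Some genes were still ordered by replicate number: 352 were highest in replicate 3 in at least 20 of the 25 groups. The main fit held no replicate term. Alternatives were quantile normalization, no filter, the mean over probe sets, log2(intensity + 16), array weights, a replicate block, the line's arrays alone, PBS for isotype, and each array left out. Figures were drawn in Python 3.11.15 with matplotlib 3.10.9.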

Additional observations from a re-analysis of the deposited data

Results flagged for a closer look

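Effects that differed between the 5 lines are listed here because an F test in limma of the difference itself passed an adjusted p of 0.05. For GA101 against isotype the adjusted p was 1.16e-11 for MYC, 3.24e-10 for POLR1C, 3.12e-08 for POLR1B, 1.4e-06 for PPRC1, 1.26e-05 for DDX21, 2.94e-05 for NOP16 and 0.000104 for RRS1. It was 0.000351 for POLR3G, 0.000451 for WDR74, 0.00109 for NOLC1, 0.00136 for WDR12, 0.0023 for WDR43, 0.00247 for NOP58, 0.00633 for NOP2 and 0.012 for GAR1.

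For rituximab against isotype it was 1.06e-13 for MYC, 4.71e-08 for POLR1B, 1.59e-06 for POLR1C, 5.08e-06 for RRS1, 7.65e-06 for WDR43 and 2.19e-05 for NOP16. It was 0.000372 for POLR3G and for PPRC1, 0.000656 for WDR74, 0.00207 for NOLC1, 0.00224 for DDX21, 0.00367 for WDR12, 0.00528 for NOP58, 0.0133 for LTV1 and 0.0412 for GAR1. For GA101 against rituximab MYC (9.93e-08), DDX21 (0.0112) and RRS1 (0.0445) differed, and for isotype against PBS POLR1B did (0.035).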

How the results depend on the processing

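Log2(intensity + 16) moved no count of members called by over 1.5 times. Counts that other settings moved were, with quantile normalization, 6 for GA101 and 4 for GA101 against rituximab over all lines, 0 for GA101 against rituximab in Z138, 0, 2 and 1 for GA101, rituximab and the combination in GRANTA-519, 6 for GA101 against rituximab and 2 for isotype against PBS in HBL-2, 1 for isotype against PBS in REC-1, and 6 and 0 for the differences among lines of GA101 against rituximab and of isotype against PBS. Without the filter they were 1 over all lines and 0 in Z138 for GA101 against rituximab, and 0 for isotype against PBS in HBL-2. With the mean over probe sets they were 1 for combination against GA101 and 1 for isotype against PBS over all lines, 1 for GA101, 2 for rituximab and 0 for GA101 against rituximab in Z138, 1 for the combination in JEKO-1, 5 for rituximab in REC-1, 10 for REC-1 minus HBL-2 with rituximab and 0 for the difference of isotype against PBS. Array weights gave 2 for isotype against PBS in HBL-2 and in REC-1, 16 for the combination in REC-1, and 5 and 2 for the differences among lines of GA101 against rituximab and of isotype against PBS. With the line's arrays alone the counts were 1 for GA101 and 0 for GA101 against rituximab in Z138, 1 each for GA101 and rituximab in GRANTA-519, 1 for GA101 against rituximab and 0 for isotype against PBS in HBL-2, and 1 for GA101 against rituximab in REC-1. PBS for isotype gave 5 for the combination over all lines, 0, 1 and 2 for GA101, rituximab and the combination in Z138, and 0 and 1 for GA101 and rituximab in GRANTA-519. The replicate block gave 4 for GA101 against rituximab and 4 for combination against GA101 over all lines, 5 for GA101 and 2 for GA101 against rituximab in Z138, 1 for the combination in GRANTA-519, 2 for isotype against PBS in HBL-2, 4 for the combination in JEKO-1, and 16 for the combination and 1 for isotype against PBS in REC-1; under it UTP20 (adjusted p 2.86e-05), NIP7 (3.94e-05) and PES1 were called in REC-1 with GA101. The causes were not tested.

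Leaving out 1 array at a time gave counts over all lines of 12 to 14 for GA101, 11 to 13 for rituximab, 10 to 14 for the combination, 1 to 4 for GA101 against rituximab, 1 to 3 for combination against GA101 and 1 to 2 for isotype against PBS. In REC-1 they were 16 to 19 for GA101, 7 to 11 for rituximab, 8 to 11 for the combination, 0 to 5 for GA101 against rituximab and 0 to 1 for isotype against PBS. In HBL-2 they were 2 to 4, 11 to 14, 9 to 12, 1 to 3 and 0 to 2 in that order. Z138 gave 0 to 4 for GA101, 2 to 4 for rituximab, 3 to 7 for the combination, 0 to 1 for GA101 against rituximab and 0 to 1 for isotype against PBS. GRANTA-519 gave 0 to 2 for GA101, 2 to 5 for rituximab and 0 to 1 for the combination, JEKO-1 gave 2 to 4 for GA101, and the difference of isotype against PBS gave 0 to 2.

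Signs turned for MYC with GA101 in Z138 under quantile normalization (0.045), for POLR3G over all lines with GA101 with the mean over probe sets (-0.087), and against PBS for CAD with GA101 in Z138 (-0.0011) and for MYC with GA101 in GRANTA-519 (0.013), HBL-2 (0.043) and JEKO-1 (0.027), with rituximab over all lines (0.077) and with the combination over all lines (0.043). Without 1 array MYC in Z138 ran from -0.12 to 0.088 for isotype against PBS, -0.17 to 0.037 for GA101 and -0.19 to 0.015 for the combination. Of 93 named calls of a member in a comparison, 58 were lost or turned under at least 1 alternative. Low intensity limits RRP9, MYBBP1A and POLR3G, which had the lowest mean log2 intensity among the members (6.41, 7.09 and 7.16).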

Other observations

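Some members were ordered by replicate number across the study. UTP20 was highest in replicate 3 in 24 of 25 groups, LYAR in 22, NIP7 in 21 and MRTO4 in 20, and the other 30 members were highest in 1 replicate number in fewer than 20 groups. Among all 13879 genes, 352 (2.54%) were highest in replicate 3 in at least 20 groups. The wide standard errors of UTP20 (0.306) and LYAR (0.305) in REC-1 with GA101 stand beside this pattern, which was noticed after the spread had been seen. Those of NIP7 (0.199) and MRTO4 (0.124), for GA101 against rituximab in REC-1, were smaller. MYBBP1A, without the pattern, had 0.197 there. With a replicate block in the limma fit, adjusted p in REC-1 with GA101 was 2.86e-05 for UTP20, 3.94e-05 for NIP7 and 1.01e-06 for LYAR. Without the block it was 0.115, 0.0761 and 0.0498. What gave rise to the pattern was not tested.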
